A study of Mus musculus with 12 samples.

Results

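The data concern 10 immediate early genes in mouse proximal colon with and without the long noncoding RNA EPR: the AP-1 subunit genes Fosb, Fos, Jun, Junb and Jund, the transcription factor genes Egr1, Atf3 and Nr4a1, the gene of unsettled molecular function Ier2, and the phosphatase gene Dusp1. They were chosen by symbol, with earlier results of these data known. All 10 were found among the 55376 genes of the count table and passed the filter on low counts that left 15952 genes. RNA-Seq was performed on total RNA of the proximal colon from 12-week-old mice, giving 12 libraries from 12 animals, of which 6 were EPR fl/fl controls and 6 were EPR cKO. EPR is an RNA of epithelial tissues that is listed in the table as Smim31. Both groups carry the EPR allele with loxP sites around its promoter and exon 1, and EPR cKO mice carry in addition the CDX2P-NLS Cre transgene. In this transgene the promoter of human CDX2 drives Cre in the epithelial cells that line the colon, the cecum and the end of the ileum. The EPR fl/fl mice carry no Cre, so that an effect of Cre itself and the loss of EPR cannot be told apart. Whole frozen tissue was used, and in such bulk samples fewer cells of a type and less RNA per cell cannot be told apart.

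Immediate early genes are transcribed within minutes of a stimulus, without new protein synthesis, because the factors that switch them on are already present and are activated by phosphorylation. Serum response factor with its ETS partners, acting through CArG boxes, and CREB, acting through cAMP response elements, are the best known of these factors, and MAP kinases feed both. The FOS proteins pair with JUN proteins to form AP-1, the EGR and NR4A proteins bind sites of their own, and DUSP proteins remove phosphate from MAP kinases and close the loop. In the gut these genes respond to growth factors, injury, microbial products and handling of the tissue. Their messenger RNAs are short-lived, so that a single sample records the state of the tissue at the time of collection.

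The promoters of 4 members are shown first, because the results turn on the first 3 (Fosb had the largest difference between the groups, Fos the next, and Dusp1 varied most like Fosb within the groups while its fold change had the other sign), and because Nr4a1 held the same 2 promoter motifs as Fosb and was not called between the groups. The table of RefSeq promoters (GRCm38.p6) held 8 of the 10 members, with a window of 250 bases before and 50 bases from the annotated start. The windows were chr7:19309996-19310295 on the minus strand for Fosb, chr12:85473640-85473939 on the plus strand for Fos, chr17:26508423-26508722 on the minus strand for Dusp1 and chr15:101266596-101266895 on the plus strand for Nr4a1. Capitals mark the core of a cAMP response element (TGACG), the full element (TGACGTCA), an EGR site (GCGGGGGCG) or a TATA box (TATAAA), on either strand.
Fosb: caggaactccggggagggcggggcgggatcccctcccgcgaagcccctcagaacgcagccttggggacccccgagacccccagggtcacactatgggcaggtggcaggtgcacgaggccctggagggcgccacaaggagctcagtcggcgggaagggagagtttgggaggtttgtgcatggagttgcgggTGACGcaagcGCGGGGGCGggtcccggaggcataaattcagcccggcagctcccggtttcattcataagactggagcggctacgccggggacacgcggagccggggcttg
Fos: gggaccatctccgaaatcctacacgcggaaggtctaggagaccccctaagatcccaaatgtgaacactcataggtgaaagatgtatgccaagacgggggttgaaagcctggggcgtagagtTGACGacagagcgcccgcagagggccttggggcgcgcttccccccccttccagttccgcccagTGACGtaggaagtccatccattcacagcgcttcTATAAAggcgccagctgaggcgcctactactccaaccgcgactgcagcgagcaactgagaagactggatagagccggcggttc
Dusp1: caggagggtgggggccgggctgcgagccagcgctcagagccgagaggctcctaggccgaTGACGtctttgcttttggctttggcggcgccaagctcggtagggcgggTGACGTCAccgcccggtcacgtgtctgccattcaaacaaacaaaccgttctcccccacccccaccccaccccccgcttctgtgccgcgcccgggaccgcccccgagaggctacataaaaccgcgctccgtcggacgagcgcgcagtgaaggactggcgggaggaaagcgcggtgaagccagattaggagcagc
Nr4a1: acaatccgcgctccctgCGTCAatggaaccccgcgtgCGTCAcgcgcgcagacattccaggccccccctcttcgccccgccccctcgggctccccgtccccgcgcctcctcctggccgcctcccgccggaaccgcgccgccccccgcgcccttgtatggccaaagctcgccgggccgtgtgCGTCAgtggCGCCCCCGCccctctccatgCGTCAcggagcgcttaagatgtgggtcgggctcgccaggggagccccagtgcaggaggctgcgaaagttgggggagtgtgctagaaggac

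In these windows the Fosb promoter held a TGACG core 60 bases and an EGR site 50 bases upstream of the start. The Fos promoter held cores 129 and 66 bases upstream and a TATA box 33 bases upstream. The Dusp1 promoter held the full element 143 bases upstream, which contains a core on each strand, and a further core 191 bases upstream. The Nr4a1 promoter held 4 cores on the opposite strand, from 233 to 40 bases upstream, and an EGR site 60 bases upstream. The core was present in 6 of the 8 member promoters (Fosb, Fos, Junb, Atf3, Nr4a1 and Dusp1), against 20.8% of all 32851 promoters of the table. The full element was present in 1 of the 8, against 1.79% of all promoters, the EGR site in 2 against 2.91%, and the TATA box in 2 (Fos and Junb) against 13.6%. In Junb the TATAAA letters began at base 1 of the annotated start, not upstream of it. That start lay 30 bases from the first base of Junb in the count table. The AP-1 site (TGANTCA, present in 7.81% of all promoters) and the CArG box (present in 1.63%) were found in 0 of the 8 windows, which says only that these letters are not within these 300 bases. The GC content of the member windows ran from 46.7% to 72.3%, with a median of 65.0% against 52.7% for all promoters. The core holds a CG step and the EGR site is all G and C. The shares over all promoters were not matched for GC content, so the counts of these motifs are not read as an excess. The RefSeq starts of Jund, Nr4a1, Atf3 and Dusp1 lay 1210, 12577, 34706 and 53656 bases from the first base of the gene in the count table, so that these windows do not lie at the first counted base. The motifs describe sequence and were not tested for occupancy.

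EPR itself was read first as a check of the labels. The 6 EPR fl/fl libraries held 794, 1474, 726, 1376, 297 and 783 counts of Smim31 and the 6 EPR cKO libraries held 1, 10, 0, 3, 4 and 1, in the order of their replicate numbers. The groups did not overlap, and the labels fit in every library. Total counts ran from 13093904 to 30727736 in the controls and from 18468123 to 33211041 in EPR cKO, and structural RNA and mitochondrial genes took shares that overlapped between the groups (exact permutation p = 0.623 and 0.552). The content of the tissue pieces varied more. A composition score, the mean log2 counts-per-million (CPM) of 10 epithelium markers minus that of 9 smooth muscle markers, stood at 1.62 ± 0.29 for the EPR fl/fl libraries (SD, n = 6) and at 2.80 ± 1.34 for the EPR cKO libraries (n = 6, exact permutation p = 0.0628). It ran from 1.34 to 2.12 in EPR fl/fl and from 0.38 to 4.00 in EPR cKO, with the library EPR cKO 1 below all EPR fl/fl libraries and the other EPR cKO libraries above them. Without EPR cKO 1 the score differed by 1.67. The exact permutation p of that removal (0.00216, the smallest this design allows) was fixed by leaving out the library that went the other way. It therefore adds no support to the p over all 12 libraries. The summed CPM of the epithelium markers was 9339 to 13860 in EPR fl/fl and 11250 to 17230 in EPR cKO (exact permutation p = 0.0303), that of the smooth muscle markers was 2911 to 5099 and 978 to 8764 (p = 0.0866), and that of 6 adipocyte markers was 285 to 1049 and 44.2 to 593 (p = 0.0195). The summed CPM of the 6 neutrophil markers was 0.571 to 3.17 and 0.716 to 3.30, and 1 of the 6 passed the filter on low counts. The summed markers of endothelium, fibroblasts, macrophages, T cells, B cells, and neurons and glia gave exact permutation p from 0.147 to 0.831. The part of adipocytes in the results was not tested.

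Of the 10 immediate early genes, Fosb was higher in EPR cKO, 8 others had a positive log2 fold change that did not pass the test, and Dusp1 had a negative one that did not pass. The count called by edgeR at an adjusted p under 0.05 was 1 of 10, against 2.46% of all tested genes in either direction and 0.884% in the higher direction. At an unadjusted p under 0.05 the count was 4 of 10, all higher in EPR cKO (Fosb, Fos, Junb and Atf3), against 11.1% of all tested genes. The median log2 fold change of the 10 was 0.41, against 0.017 over all tested genes. No member was past the thresholds of the study (a fold of at least 2.38 in either direction at an adjusted p under 0.001) by edgeR, DESeq2 or limma-voom, and 0.169% of tested genes were past them by edgeR. No member had all 6 EPR cKO libraries above all 6 EPR fl/fl libraries, a pattern that 1.00% of tested genes showed. The edgeR count of members called was 0 without EPR fl/fl 1, 3, 4 or 5 or without EPR cKO 2, 3, 5 or 6, was 1 without EPR fl/fl 2 or EPR cKO 4 (Fosb) or without EPR fl/fl 6 (Fos), and was 3 without EPR cKO 1 (Fosb, Fos and Junb), a removal that raised the share called over all tested genes to 21.8%.

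**Figure D1:**
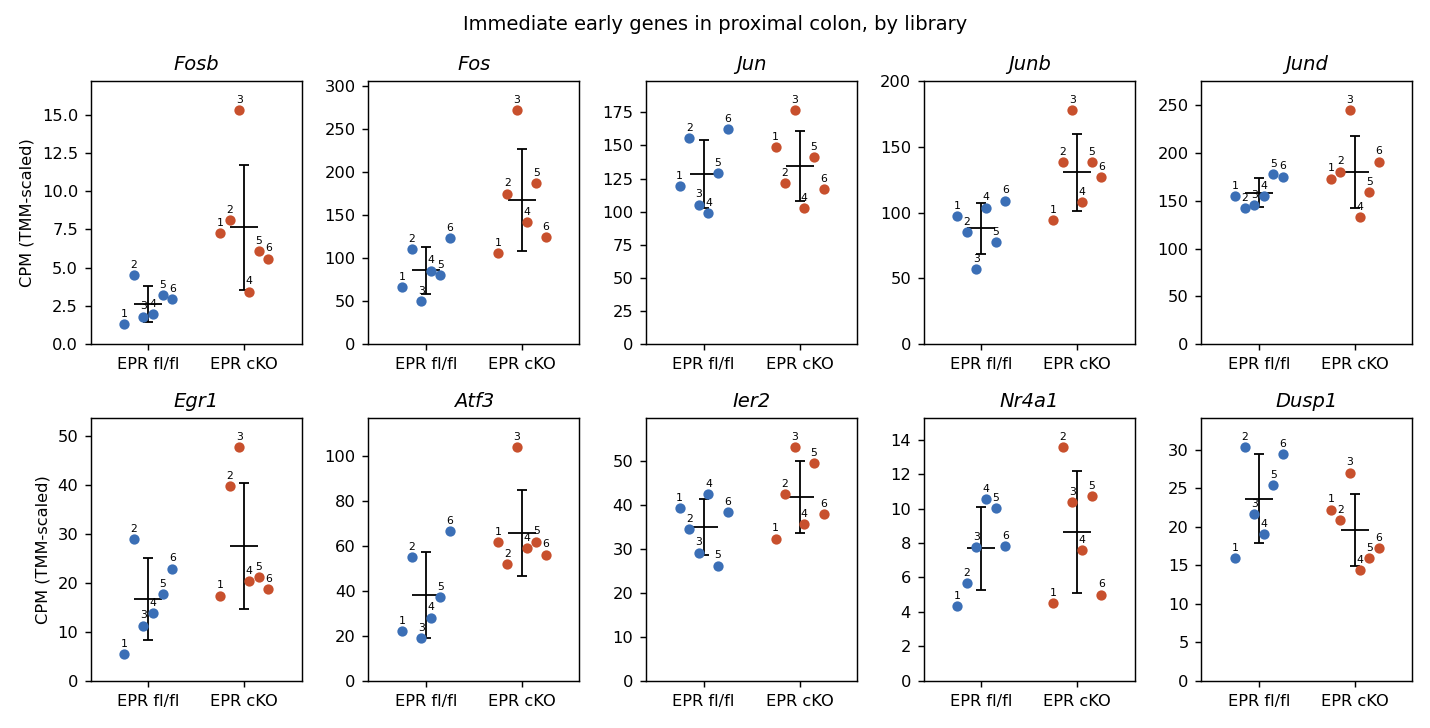
TMM-scaled CPM of the 10 immediate early genes in each library (numbers are replicate numbers, the horizontal bar is the group mean and the whiskers are 1 SD, n = 6 each; every axis starts at 0). Fosb ran from 1.32 to 4.52 in EPR fl/fl and from 3.44 to 15.3 in EPR cKO, and EPR cKO 3 was the highest library for 8 of the 10 genes.

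Among the FOS subunits, Fosb encodes a partner of JUN proteins that also gives rise to a long-lived truncated form by splicing, which counting per gene does not resolve. The gene lies at chr7:19302696-19310051 on the minus strand (mm10), with 4 exons that share no 50-base stretch with another gene. Its CPM was 1.32 at the lowest, 2.47 at the median and 4.52 at the highest in the EPR fl/fl libraries, and 3.44, 6.67 and 15.3 in the EPR cKO libraries. Of the EPR cKO libraries, 5 lay above every EPR fl/fl library, and EPR cKO 4 (3.44) lay below EPR fl/fl 2 (4.52). The log2 fold change was 1.52 (SE 0.36, 95% interval 0.74 to 2.31), a fold of 2.88, with an edgeR adjusted p of 0.0445. The adjusted p was 0.0515 with limma-voom, 0.0655 with total counts, 0.0917 with the replicate block and 0.0667 with the composition covariate, and it was under 0.05 in the other 6 alternatives of scaling, filter, tool or gene set. These were low counts, from 18 in EPR fl/fl 1 to 305 in EPR cKO 3, and the 18 counts of the first correspond to between 0.683 and 1.82 CPM of the unscaled library total by an exact binomial 95% interval, which covers counting error only. The call was lost in most removals of a library. Without EPR fl/fl 1, 3, 4, 5 or 6, or EPR cKO 2, 3, 5 or 6, the edgeR adjusted p was 0.0678 to 0.120. Without EPR fl/fl 2, EPR cKO 1 or EPR cKO 4 it was 0.0305, 0.0149 and 0.0335. Without EPR fl/fl 5, EPR fl/fl 6, EPR cKO 5 or EPR cKO 6 the log2 fold change was 1.579, 1.559, 1.582 and 1.598. Without EPR fl/fl 1, 3 or 4 or EPR cKO 2 or 3 it lay between 1.198 and 1.509. The removals that lost the call gave 176 to 349 calls over all tested genes, against 392 with all libraries. There were 352, 3451 and 234 without EPR fl/fl 2, EPR cKO 1 or EPR cKO 4. Why the call was lost was not tested. In all 12 removals the log2 fold change lay between 1.20 (without EPR cKO 3) and 1.76 (without EPR fl/fl 2).

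Fos, the prototype of the family and the partner of JUN proteins in the first wave of AP-1, lies at chr12:85473890-85477273 on the plus strand. Its CPM was 50.3 at the lowest, 83.0 at the median and 123 at the highest in EPR fl/fl, and 106, 158 and 272 in EPR cKO. The pattern resembled that of Fosb, in that 5 of the 6 EPR cKO libraries lay above every EPR fl/fl library, but here the exception was EPR cKO 1, the library with the lowest composition score. On the log2 scale the fold change was 0.96 (SE 0.25), a fold of 1.95 with a 95% interval of 1.35 to 2.83, with an edgeR adjusted p of 0.0625, which missed the threshold. Without EPR cKO 1, which raised the calls over all genes from 392 to 3451, the adjusted p was 0.00990, and without EPR fl/fl 6 it was 0.0482.

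Of the JUN subunits, Junb had the largest difference, and Jun and Jund had log2 fold changes near 0 with intervals that included it. Junb, which encodes a weaker activator than Jun in many settings, is a gene of a single exon at chr8:84976910-84978718, and 5.76% of its 50-base stretches are shared with Prdx2. Its CPM was 57.0 at the lowest, 91.3 at the median and 109 at the highest in EPR fl/fl and 94.2, 133 and 178 in EPR cKO, with 4 of 6 EPR cKO libraries above every EPR fl/fl library. This gave a log2 fold change of 0.57 (SE 0.17, 95% interval 0.20 to 0.94, edgeR adjusted p = 0.107), and without EPR cKO 1 the adjusted p was 0.0175, within the same rise to 3451 calls over all genes. Jun, the subunit that can also pair with itself, lies at chr4:95049034-95052222. Its CPM ran from 99.1 to 163 in EPR fl/fl and from 103 to 177 in EPR cKO, so that the groups covered nearly the same range. Its log2 fold change was 0.07, with a 95% interval of -0.26 to 0.39 (edgeR adjusted p = 0.820). Jund, the subunit that is also expressed in resting cells, lies at chr8:70698949-70700616. Its CPM ran from 142 to 178 in EPR fl/fl and from 133 to 245 in EPR cKO, and its log2 fold change was 0.19 (95% interval -0.08 to 0.45, edgeR adjusted p = 0.437). The antisense gene Gm11175 covers 52.6% of the exon bases of Jund, and the strand setting of the counting is not stated, so that the counts of Jund are uncertain.

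Egr1 encodes a zinc finger factor that serves as a common readout of MAP kinase signalling. Its CPM was 5.49 at the lowest, 15.8 at the median and 29.0 at the highest in EPR fl/fl and 17.4, 20.7 and 47.8 in EPR cKO. The 6 EPR cKO libraries lay above the EPR fl/fl median, and EPR cKO 2 and 3 lay above every EPR fl/fl library. Its log2 fold change was 0.72 (SE 0.37, edgeR adjusted p = 0.319), and the 95% interval reached from a fold of 0.950 to a fold of 2.84. EPR fl/fl 1 (5.49) and EPR fl/fl 2 (29.0) thus stood farther apart than the means of the groups (16.7 ± 8.40 and 27.5 ± 12.9, SD, n = 6 each).

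Atf3, a stress-induced relative of the AP-1 factors that often represses transcription, had a CPM of 18.9 at the lowest, 32.8 at the median and 66.6 at the highest in EPR fl/fl and 51.9, 60.4 and 104 in EPR cKO. The EPR cKO libraries lay close together between 51.9 and 62.0 apart from EPR cKO 3 (104), and EPR fl/fl 2 and 6 (55.1 and 66.6) lay within or above that range while the other 4 EPR fl/fl libraries lay below it. The difference was 0.79 on the log2 scale (SE 0.29, 95% interval 0.15 to 1.43, edgeR adjusted p = 0.186). Nr4a1, an orphan nuclear receptor gene, ran from 4.32 to 10.5 CPM in EPR fl/fl and from 4.51 to 13.6 in EPR cKO. Its log2 fold change was 0.17 (95% interval -0.45 to 0.79, edgeR adjusted p = 0.765). Ier2, a gene of a single exon at chr8:84661331-84662854, ran from 26.2 to 42.6 CPM and from 32.4 to 53.2, with a log2 fold change of 0.26 (95% interval -0.06 to 0.57, edgeR adjusted p = 0.363). Neither gene separated the groups.

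Dusp1 encodes the phosphatase that dephosphorylates p38 and JNK kinases and was the member with a negative log2 fold change. Its CPM was 15.96 at the lowest, 23.6 at the median and 30.4 at the highest in EPR fl/fl and 14.4, 19.1 and 27.1 in EPR cKO. The groups overlapped, and no EPR cKO library lay above every EPR fl/fl library. The log2 fold change was -0.27 (SE 0.18, 95% interval -0.67 to 0.13, edgeR adjusted p = 0.445). A rise by as much as that of Fosb lies outside this interval.

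**Figure D2:**
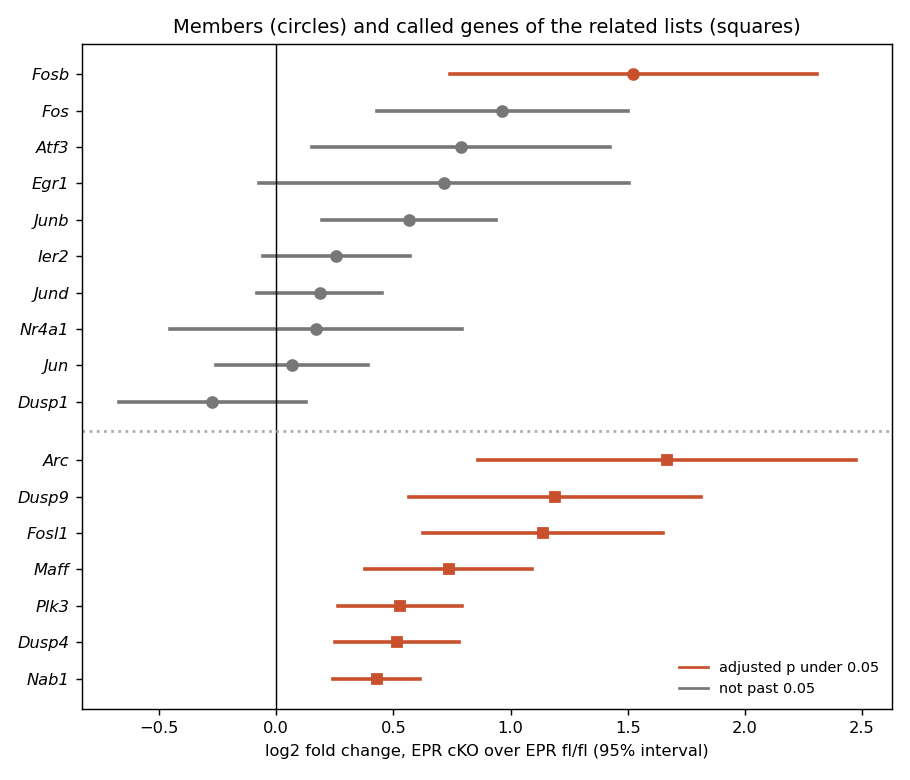
Log2 fold change of EPR cKO over EPR fl/fl with its 95% interval from edgeR, for the 10 members (circles, above the dotted line) and the 7 genes of the related lists with an adjusted p under 0.05 (squares). Of the members, Fosb (1.52) is past the threshold, the intervals of Fos, Atf3 and Junb lie above 0 without passing it, and that of Dusp1 (-0.67 to 0.13) includes 0.

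Levels of different genes were compared per kilobase of exon (RPKM, the TMM-scaled CPM divided by the exon length of the gene). In EPR fl/fl, Jund was the highest member (94.95 ± 9.01 RPKM, SD, n = 6) and Fosb the lowest (0.697 ± 0.309). The place of Jund is uncertain in both groups, since Gm11175 overlaps it and the strand setting of the counting is not stated. Junb (48.8 ± 10.7), Fos (40.8 ± 12.9) and Jun (40.3 ± 8.15) followed Jund, and Fos exceeded Jun in 3 of 6 libraries, so that these neighbours did not differ beyond their spread. Ier2 (23.0 ± 4.14) and Atf3 (17.7 ± 8.85) were likewise not ordered, with Ier2 higher in 3 of 6 libraries. Dusp1 (9.98 ± 2.43) came next and was above Egr1 in 6 of 6 libraries. Egr1 (3.72 ± 1.87) and Nr4a1 (2.87 ± 0.901) were not ordered (Egr1 higher in 3 of 6), and both stood above Fosb, Nr4a1 in 6 of 6 libraries.

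In EPR cKO the same 2 genes stood at the ends of the order, Jund at 108 ± 22.4 RPKM and Fosb at 2.02 ± 1.08. Fos (79.6 ± 28.2) stood next to Jund and above Junb (72.3 ± 16.1) in 4 of 6 libraries, and Fos exceeded the level of Jun (42.2 ± 8.28) by more than it had in EPR fl/fl. Atf3 (30.6 ± 8.88) stood above Ier2 (27.5 ± 5.36) in 4 of 6 libraries. Egr1 (6.14 ± 2.87) was above Nr4a1 (3.22 ± 1.33) in 6 of 6 libraries and below Dusp1 (8.27 ± 1.98) in 5 of 6. Fosb was below Nr4a1 in 4 of 6 libraries, so that these 2 were no longer ordered in every library.

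The 4 FOS genes and 3 JUN genes were also read together as the AP-1 pool, a choice made after the values were seen, and without a test. The summed RPKM of Fos, Fosb, Fosl1 and Fosl2 was 78.5 ± 16.03 in EPR fl/fl (SD, n = 6, range 60.0 to 98.9) and 127 ± 30.7 in EPR cKO (103 to 183), and the ranges did not overlap. The summed RPKM of Jun, Junb and Jund was 184 ± 20.7 (152 to 216) and 223 ± 42.6 (172 to 300), and these ranges did overlap. Jund, whose counts are uncertain because of Gm11175, is a large part of this sum, so that the shares of the pool are uncertain too. The FOS genes made up 29.7% ± 3.19 of the pool in EPR fl/fl mice and 36.3% ± 2.69 in the EPR cKO mice. The ranges overlapped, since EPR fl/fl 2 (35.3%) lay above EPR cKO 1 (34.0%) and EPR cKO 6 (31.8%), and the other 5 EPR fl/fl libraries (at most 30.7%) lay below every EPR cKO library. Within the FOS genes, Fosb was a minor species, with 0.861% ± 0.248 of their summed RPKM in EPR fl/fl mice and 1.52% ± 0.474 in the EPR cKO mice. The FOS sum was thus made almost wholly of Fos and Fosl2, and Fosl2, a FOS gene with steady expression, stood at 36.3 ± 4.42 and 44.3 ± 5.81 RPKM.

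**Figure D3:**
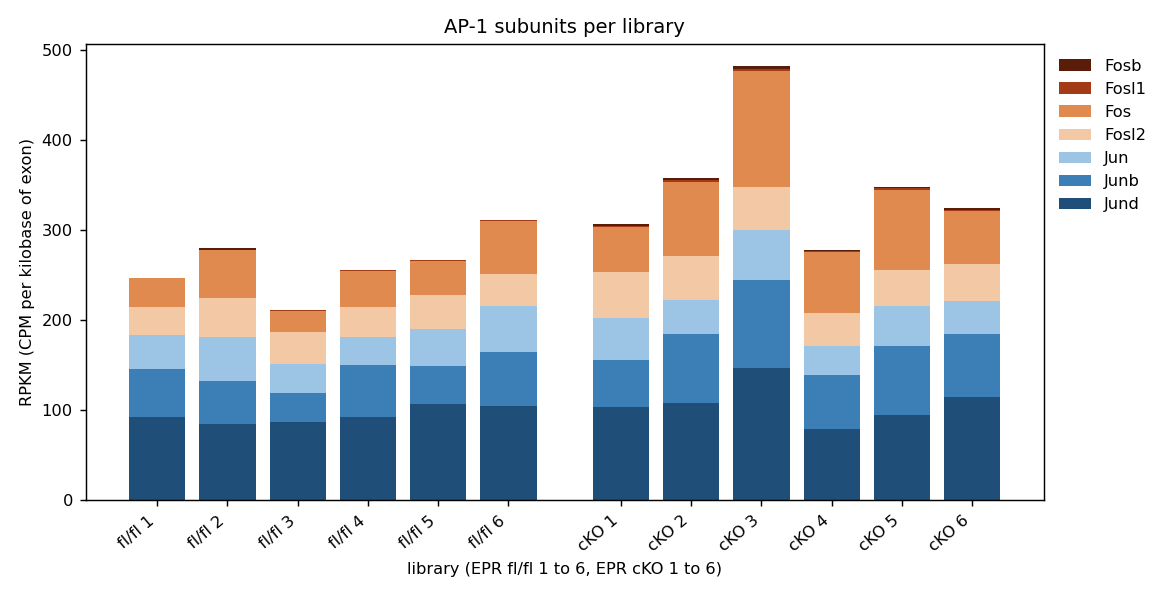
RPKM of the 3 JUN genes (blue) and 4 FOS genes (orange and brown) in each library, stacked from 0. The counts behind the Jund part are uncertain. The FOS part of the stack is 60.0 to 98.9 RPKM high in EPR fl/fl and 103 to 183 in EPR cKO, Fosb and Fosl1 are thin bands at the top, and EPR cKO 3 has the tallest stack.

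The libraries of a group differed from each other in some of these genes more than in most genes. The SD of log2 CPM within the groups placed Egr1 at percentile 92.0 of all tested genes, Fosb at 89.1, Atf3 at 84.5, Nr4a1 at 84.3 and Fos at 78.7. Nearer the middle were Dusp1 at 65.6, Junb at 63.5, Jun at 56.3 and Ier2 at 54.6, and Jund was the lowest of the 10, at 45.0. These percentiles are over genes of all levels, and low counts such as those of Fosb add counting error to the SD. On the log2 scale the SD of Fosb over the EPR fl/fl libraries was 0.62 and over the EPR cKO libraries 0.70, and that of Egr1 was 0.84 and 0.62. The biological coefficient of variation was 42.9% for Fosb and 43.8% for Egr1. Whether the spread itself differed between the groups was asked with an exact permutation test of the absolute deviations from the group median. At an unadjusted p under 0.05 it called 0 of 10 members, against 6.75% of all tested genes. Atf3 came nearest, with an SD of 0.72 over the EPR fl/fl libraries that compared with 0.36 over the EPR cKO libraries (exact permutation p = 0.0671), and the other members gave p from 0.288 (Jund) to 0.926 (Jun).

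The libraries that were high for 1 member were often high for others. Over the 45 pairs of members, the Pearson r of log2 CPM, centred on each group mean over 12 libraries, exceeded 0.5 in 24 pairs, was below 0 in 2 and had a median of 0.53. These correlations are descriptions, since all genes of a library share its depth and its tissue content. The same count was not taken over pairs of other genes, so it does not show whether the members go together more than other genes do. Grouped after the values were seen, Fosb, Dusp1, Egr1, Jun and Atf3 had r from 0.55 (Jun with Egr1) to 0.93 (Fosb with Dusp1) among themselves, and Junb went with Ier2 (0.86) and Fos (0.81). Fos had r of 0.82 with Atf3 and 0.78 with Egr1 and of 0.68 with Fosb, and Nr4a1 had its highest r with Egr1 (0.54). EPR fl/fl 1 was the lowest EPR fl/fl library for Fosb (1.32 CPM), Egr1 (5.49 CPM), Nr4a1 (4.32 CPM) and Dusp1 (15.96 CPM). EPR cKO 3 was the highest EPR cKO library for all members except Nr4a1, where EPR cKO 2 and 5 stood above it.

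The tested genes most like Fosb in these centred values over 12 libraries were Dusp1 (r = 0.93), Arntl (0.92), Rnf24 (0.91), Armc5 (0.88) and Tnip3 (0.86). Arntl encodes BMAL1, a core factor of the circadian clock, and Tnip3 an inhibitor of NF-kappaB signalling. None of these 5 passed the test between the groups, with log2 fold changes from -0.32 (Arntl) to 0.47 (Tnip3). The r of Fosb with Dusp1 was 0.93 within EPR fl/fl and 0.94 within EPR cKO, and that with Arntl was 0.95 and 0.89 (n = 6 each). The 5 genes were picked by their r over these same libraries. High r within the groups follows from that pick and is no separate support. The clock gene Per1, named after its values were seen, had r = -0.58 with Fosb over the 12 libraries, -0.90 within EPR fl/fl and -0.25 within EPR cKO. The genes most like Fos were Hbegf (0.92), Nfkb2 (0.89), Igkv3-2 (0.87), Get4 (0.85) and Cdc42ep4 (0.85), which shares no gene with the list for Fosb. Hbegf encodes a ligand of the EGF receptor and Nfkb2 a subunit of NF-kappaB.

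Fosb and Dusp1, a pair picked by its r, ran together from library to library within each group but stood at another ratio in EPR cKO. The log2 CPM of Fosb minus that of Dusp1 ran from -3.53 to -2.73 in EPR fl/fl (median -3.25) and from -2.04 to -0.82 in EPR cKO (median -1.49). The ranges did not overlap, although those of Fosb alone and of Dusp1 alone did. The log2 CPM of Fos minus that of Jun ran from -1.07 to -0.21 in EPR fl/fl and from -0.49 (EPR cKO 1) to 0.62 in EPR cKO, with 5 of the 6 EPR cKO libraries above the EPR fl/fl range. Both ratios were chosen after the values were seen and carry no test.

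**Figure D4:**
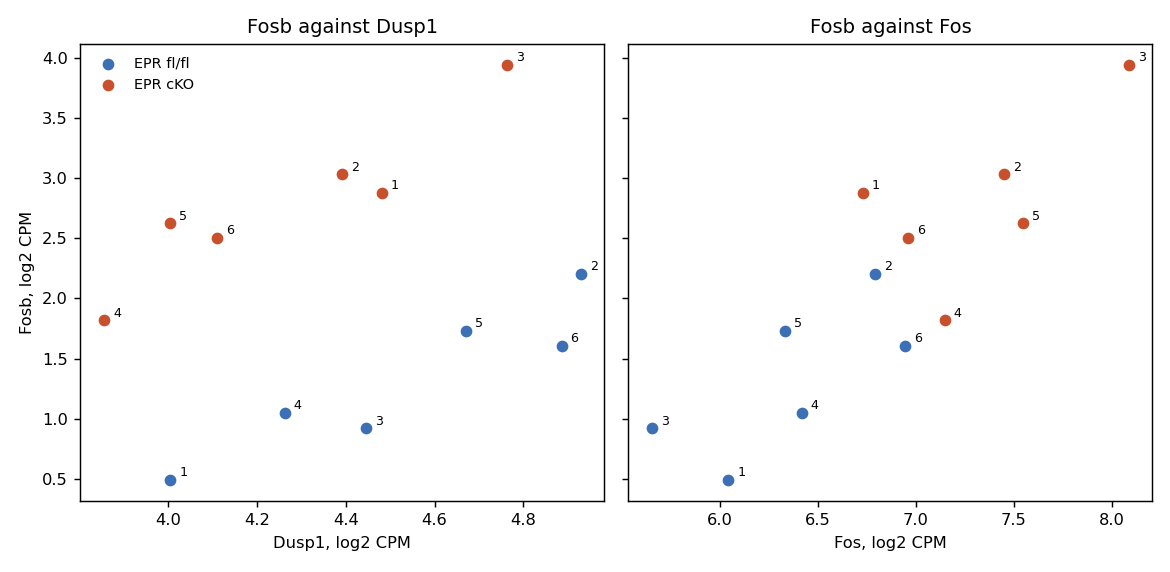
Log2 CPM of Fosb against Dusp1 (left) and against Fos (right) in each library, with replicate numbers (blue, EPR fl/fl; red, EPR cKO; n = 6 each). Against Dusp1 each group forms its own rising line, the EPR cKO line being the upper one, and against Fos both groups lie along 1 band with EPR cKO 3 at its upper end.

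Because the tissue pieces differed in their content of epithelium and muscle, Fosb was set against the composition score. Over the 12 libraries Pearson's r was 0.34 (permutation p = 0.281) and Spearman's rho 0.43 (permutation p = 0.163), and r was 0.25 without EPR cKO 5 and 6, the 2 libraries farthest from the median score. Within EPR fl/fl r was 0.36 (exact permutation p = 0.475, rho = 0.31, exact p = 0.564, and r = -0.86 without EPR fl/fl 2 and 3). Within EPR cKO r was -0.31 (exact permutation p = 0.514, rho = -0.54, exact p = 0.297, and r = -0.61 without EPR cKO 1 and 5). The Benjamini-Hochberg adjusted p over these 3 relations was 0.514 for each r and between 0.446 and 0.564 for rho. With the score as a covariate the log2 fold change of Fosb was 1.61 (edgeR adjusted p = 0.0667), that of Fos 0.77 (0.205), that of Junb 0.42 (0.337) and that of Dusp1 -0.14 (0.823), and 0 of 10 members were called. Without the covariate these log2 fold changes were 1.52, 0.96, 0.57 and -0.27.

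The genes around the members were read from 6 lists, which were chosen with earlier results of these data known. In the 4 lists of relatives (AP-1 and ATF factors, EGR and NR4A factors, DUSP phosphatases, and other immediate early genes), edgeR called 7 of 68 tested genes, all higher in EPR cKO, against the 2.46% and 0.884% of all tested genes given above. Of these 7, Arc and Dusp9 reached 1 CPM in fewer than 4 EPR fl/fl libraries. They passed the low-count filter only through EPR cKO libraries, where they were high, so their calls are not independent support. Without that filter their edgeR adjusted p was 0.0415 and 0.0812. The median log2 fold change over these 68 genes was 0.09, and 45 were positive and 23 negative, against 8430 and 7522 of all tested genes. With the composition score as a covariate the edgeR adjusted p of these 7 ran from 0.0791 to 0.135, while their log2 fold changes were 1.38 (Arc), 0.99 (Dusp9), 0.90 (Fosl1), 0.71 (Maff), 0.50 (Plk3), 0.47 (Dusp4) and 0.31 (Nab1), against 1.67, 1.19, 1.14, 0.74, 0.53, 0.52 and 0.43 without it. Of the 10 alternatives other than removals of a library, Arc and Fosl1 were past 0.05 in 9, Nab1 and Plk3 in 7, Maff and Dusp4 in 6 and Dusp9 in 5. When a library was left out, the 6 lists gave 0 calls without EPR fl/fl 4, EPR cKO 3 or EPR cKO 6, between 1 and 5 without EPR fl/fl 1, 2, 3, 5 or 6 or EPR cKO 2, 4 or 5, and 15 without EPR cKO 1 (13 higher and 2 lower, among them all 7), where 21.8% of all tested genes were called.

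Of the 15 AP-1 and ATF relatives, Fosl1 and Maff rose, none was called lower and 5 had negative log2 fold changes (median 0.04). Fosl1, which encodes the FOS relative FRA1, had a CPM of 0.732 at the lowest, 1.32 at the median and 1.61 at the highest in EPR fl/fl and 1.82, 2.58 and 3.74 in EPR cKO. The groups did not overlap, and the log2 fold change was 1.14 (SE 0.24, edgeR adjusted p = 0.0242). Of all tested genes, 1.00% had every EPR cKO library above every EPR fl/fl library. In relatives named for their adjusted p such separation largely follows from the choice and is no separate support. Maff, a small MAF protein without an activation domain, ran from 7.40 to 14.8 CPM and from 15.5 to 20.8 CPM, again without overlap (log2 fold change 0.74, SE 0.16, edgeR adjusted p = 0.0339). Fosl2 overlapped between the groups, at 0.28 (95% interval 0.06 to 0.51, edgeR adjusted p = 0.173).

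Of the 5 tested EGR and NR4A relatives, Nab1 rose, none was called lower and 1 had a negative log2 fold change. Nab1, a corepressor of EGR proteins, ran from 57.3 to 75.4 CPM in EPR fl/fl and from 78.0 to 101 in EPR cKO without overlap (log2 fold change 0.43, SE 0.09, edgeR adjusted p = 0.0202). Egr3 and Egr4 were left untested by the filter, with at most 32 and 1 counts in a library. Of the 10 DUSP relatives, Dusp4 and Dusp9, which act on ERK among other MAP kinases, rose, none was called lower, 4 had negative log2 fold changes and the median was 0.02. Dusp4 ran from 5.49 to 8.51 CPM and from 8.58 to 10.9 CPM (log2 fold change 0.52, SE 0.12, edgeR adjusted p = 0.0437), and Dusp9 from 0.476 to 1.68 CPM and from 1.70 to 3.14 CPM (1.19, SE 0.29, edgeR adjusted p = 0.0483). Neither overlapped between the groups, though both by narrow margins.

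Of the 38 tested other immediate early genes, Arc and Plk3 rose, none was called lower by edgeR, 13 had negative log2 fold changes and the median was 0.18. At an unadjusted p under 0.05, 8 were higher and 1 was lower, against 1777 and 1136 of all 15952 tested genes. Arc, known as an activity-regulated gene of neurons, was the gene with the largest fold among the relatives, at 0.260 to 1.11 CPM in EPR fl/fl and 1.05 to 2.72 CPM in EPR cKO (log2 fold change 1.67, SE 0.37, edgeR adjusted p = 0.0339). The summed CPM of 10 neuron and glia markers was 43.8 to 89.3 in EPR fl/fl and 16.9 to 145 in EPR cKO (exact permutation p = 0.147), and the part of these cells in the result was not tested. Plk3, a stress-responsive kinase gene, ran from 16.8 to 28.2 CPM and from 25.4 to 30.8 CPM, with EPR fl/fl 6 alone reaching the EPR cKO range (log2 fold change 0.53, SE 0.12, edgeR adjusted p = 0.0400). Without EPR fl/fl 6 its adjusted p was 0.00201.

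The kinases and factors that act upstream of immediate early genes gave 0 calls of 26 by edgeR. At an unadjusted p under 0.05, 4 were higher (against 11.1% of all tested genes) and 1 was lower (against 1136 of all 15952). DESeq2 called 1 of them (Map2k1), limma-voom 0 and limma-voom with quality weights 3, where these tools called 5.72%, 3.15% and 20.5% of all tested genes. The 2 with the smallest p were Map2k1, which encodes the ERK kinase MEK1 (log2 fold change 0.33, edgeR adjusted p = 0.0783), and Mapk3, which encodes ERK1 (0.24, edgeR adjusted p = 0.172). The 11 heat shock genes, which follow stress of the tissue, gave 0 calls by edgeR, DESeq2 and limma-voom and 1 by limma-voom with quality weights. At an unadjusted p under 0.05, 1 of the 11 was higher, near the 11.1% of all tested genes, and their median log2 fold change was 0.13. The 2 with the smallest p, Hspe1 (0.45, edgeR adjusted p = 0.240) and Hspd1 (0.29, edgeR adjusted p = 0.348), encode the mitochondrial chaperonin pair.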

How the data were processed

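RNA-Seq was performed on total RNA from 12 proximal colon samples. The authors depleted ribosomal RNA, prepared stranded libraries, aligned reads with STAR 2.5.3a to mm10 and deposited raw counts per gene from featureCounts. These counts were neither normalized nor filtered, and the strand setting and the treatment of reads with several alignments were not given in the sources used here. Groups came from the sample titles, and no library was left out. Within each group no pair of libraries was a repeat of the same library (smallest chi-square per gene 24.7 over 30 pairs).

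In R 4.3.3, genes with at least 1 CPM in at least 4 libraries were kept, scaled by TMM and tested with edgeR 4.0.16 (glmQLFit and glmQLFTest, EPR cKO against EPR fl/fl, no covariate, Benjamini-Hochberg over all 15952 tested genes). Standard errors were the absolute log2 fold change over the square root of F. A prior count of 2 was added for log2 CPM values. Single measures were compared by two-sided exact permutation tests over 924 assignments. Alternatives used DESeq2 1.42.0 and limma 3.58.1, other scalings and filters, a composition covariate, a replicate block and the removal of each library in turn. The edgeR test and the test of spread were tested on simulated data.

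The members and lists were chosen with earlier results of these data known. Named genes were the members, Smim31, in each related list the genes with an adjusted p under 0.05 or else the 2 with the smallest p, and the 5 genes most like Fosb and Fos. Other genes, where named, were picked with their values known. P-values measure the spread between mice. Sequences and motifs came from RefSeq promoters (GRCm38.p6), and gene structures from GENCODE M21 on mm10.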

Additional observations from a re-analysis of the deposited data

Results flagged for a closer look

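Of 42 sets of 6 values examined, 3 held a single library that stood apart from the others of its group by the Dixon criterion, where chance gives about 1 in 20, or 2.1. Atf3 was at 104.1 CPM in EPR cKO 3, while the other 5 of its group ran from 51.9 to 62.0. Plk3 was at 28.18 CPM in EPR fl/fl 6, against 16.8 to 20.5 in the other 5 EPR fl/fl libraries. Smim31 was at 0.424 CPM in EPR cKO 2, from 10 counts, while its other 5 libraries ran from 0 to 0.134.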

How the results depend on the processing

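Fosb kept its direction under all 10 alternatives and all 12 removals of a library, with log2 fold changes of 1.45 to 1.61 and 1.20 to 1.76. It did not pass an adjusted p of 0.05 with total counts without TMM (1.48, 0.0655), limma-voom (1.45, 0.0515), the composition covariate (1.61, 0.0667) or the replicate block (1.46, 0.0917), nor in 9 of the 12 removals. The count of members called was 0 under those 4 settings, 3 with DESeq2 (Fosb, Fos and Junb), 4 with quality weights (Atf3 also) and 0 to 3 when a library was left out. The related lists gave 4 calls with total counts, 2 without the low-count filter, 16 with quality weights, 4 with the replicate block, 0 with the covariate and 0 to 15 when a library was left out. All tested genes gave 913 calls with DESeq2, 3263 with quality weights, 245 with the replicate block and 176 to 3451 when a library was left out, the highest without EPR cKO 1. The cause of these differences was not tested. The split of higher against lower calls was 141 to 251, but 39 to 247 with total counts, where the median of all genes moved from 0.017 to -0.015. Same-numbered libraries had r from -0.24 to 0.34, and 2 of 6 were closest to their own number. The sample titles do not say that the numbers pair the mice. These values were read without a chance reference and cannot exclude it. Members with unequal spread numbered 1 with total counts and 0 to 1 when a library was left out, and the composition difference was 0.94 to 1.67. Jun, at 0.07, reversed without EPR cKO 3 (-0.026; 0.15 without EPR fl/fl 6 was the highest). Low counts limit Fosb, Arc, Fosl1 and Dusp9 most.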
